A study of Mus musculus with 12 samples.

Results

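The genes of the phagocyte NADPH oxidase were followed through 12 RNA-seq libraries of mouse bone marrow monocytes. The set holds 6 genes of the 54532 listed for each library, chosen by gene symbol: Cybb, Cyba, Ncf1, Ncf4, Rac1 and Rac2. All 6 passed the filter on low counts, and each had between 2990 and 74380 counts in every library. In the study, mice had received succinate at 300 mM for 7 days or none, and CD11b-positive, Ly6C-high monocytes were sorted from their marrow. The cells were then kept in culture with LPS, the bacterial lipopolysaccharide that activates Toll-like receptor 4, for 4 h, or left without it. The 4 groups of 3 libraries were LPS-treated cells of succinate mice, LPS-treated cells of control mice, cells of succinate mice without LPS and cells of control mice without LPS. The labels name no strain, age, LPS dose or route of succinate, and do not say whether replicates stand for separate mice or for repeats of one cell pool. The p-values therefore measure the spread between these libraries, which may be technical.

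The phagocyte oxidase moves electrons from NADPH across a membrane onto oxygen and so makes superoxide, a weapon against ingested microbes and a source of signalling oxidants. Its membrane core, flavocytochrome b558, is a heterodimer of the catalytic chain gp91phox (Cybb) and the stabilising chain p22phox (Cyba). On activation the cytosolic organiser p47phox (Ncf1) and the phosphoinositide-binding p40phox (Ncf4) reach the core together with a GTP-loaded Rac. Rac2 is the Rac GTPase of blood cells, and Rac1 is made in nearly all cells. Loss of a core or cytosolic chain causes chronic granulomatous disease in humans.

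The genes lie on 4 chromosomes of GRCm38, the assembly behind mm10. Cybb (ENSMUSG00000015340) spans chrX:9435252-9487771, Cyba (ENSMUSG00000006519) chr8:122424776-122432930 and Ncf1 (ENSMUSG00000015950) chr5:134220053-134229625. Ncf4 (ENSMUSG00000071715) spans chr15:78244801-78262580, Rac1 (ENSMUSG00000001847) chr5:143503634-143528036 and Rac2 (ENSMUSG00000033220) chr15:78559167-78572783. Ncf4 is on the plus strand and the other 5 are on the minus strand. The promoters of Cybb, Ncf1 and Cyba are shown, since Cybb and Ncf1 moved most with LPS and Cyba makes the partner chain of Cybb. Each is the 250 bases before the RefSeq start (GRCm38.p6, minus strand), read 5′ to 3′. Capitals mark every match to GAAANNGAA, a paired site of the kind bound by interferon regulatory factors, on either strand.
Cybb: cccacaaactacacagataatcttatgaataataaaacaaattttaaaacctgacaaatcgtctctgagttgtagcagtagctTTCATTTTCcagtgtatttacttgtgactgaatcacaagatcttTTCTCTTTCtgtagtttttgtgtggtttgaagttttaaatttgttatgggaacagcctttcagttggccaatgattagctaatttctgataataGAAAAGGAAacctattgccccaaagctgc
Ncf1: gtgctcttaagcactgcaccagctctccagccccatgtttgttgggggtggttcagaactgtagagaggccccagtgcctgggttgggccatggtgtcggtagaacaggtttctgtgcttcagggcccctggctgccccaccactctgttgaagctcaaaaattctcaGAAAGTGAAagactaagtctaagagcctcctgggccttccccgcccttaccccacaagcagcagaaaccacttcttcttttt
Cyba: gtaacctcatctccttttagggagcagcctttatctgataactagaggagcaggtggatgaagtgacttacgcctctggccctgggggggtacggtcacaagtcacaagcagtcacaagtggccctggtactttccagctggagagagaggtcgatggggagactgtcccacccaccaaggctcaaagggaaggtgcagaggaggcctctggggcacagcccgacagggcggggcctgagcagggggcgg
The Cybb window, chrX:9469325-9469574, lies within the annotated span of the gene. The Ncf1 window is chr5:134229626-134229875 and the Cyba window chr8:122432941-122433190.

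The windows differed in composition and in the motifs searched. GC content was 34.0% for Cybb, 54.4% for Ncf1 and 60.0% for Cyba, against a median of 52.4% over all promoter windows. GAAANNGAA was found 3 times in the Cybb window, starting at -167, -123 and -29 from the start site, and once in the Ncf1 window, at -82. It was not found in the Cyba window. Of 32851 promoter windows in the table, 7.13% held the motif, and 19 windows (0.0578%) held at least 3 matches. GGGCGG, the GC box, was in the Cyba window at -24 and -6 and in the Ncf1 window at -42, and in 32.7% of all windows. CCAAT (33.8% of all windows) and the AP-1 element TGANTCA (6.75%) were found in the Cybb window at -56 and -139 and not in the others. GAGGAA, a form of the site read by PU.1, was in none of the 3 windows and in 23.3% of all. Shorter forms of this site were not searched, so its absence says nothing of other PU.1 sites. No match overlapped one of another motif. The motifs were chosen after the windows had been read, and 3 matches is the number seen in the Cybb window. The shares over all windows are therefore no test of these matches. These are matches of letters on both strands and say nothing of binding.

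The libraries were close in depth, with 15975882 to 18306747 counts and 19429 to 21183 genes detected. The 10 markers fixed for Ly6C-high monocytes were present in all groups, among them Lyz2 with means of 2828 to 5858 CPM (read counts scaled to the TMM-adjusted depth of each library) and Ly6c2 with means of 572 to 1277 CPM. The 13 neutrophil markers summed to 4967 to 11901 CPM per library, mostly secondary granule genes such as Ngp and Camp, while Ly6g averaged 3.87 to 7.73 CPM in the 4 groups. The 7 myeloid progenitor markers, all of which passed the filter, summed to 3715 to 4470 CPM in LPS-treated succinate libraries, 2080 to 4690 CPM in LPS-treated control libraries, 2389 to 3962 CPM in succinate libraries without LPS and 2554 to 3534 CPM in control libraries without LPS. The 7 B cell markers summed to at most 31.2 CPM and the 8 T and NK cell markers to 18.5 to 44.0 CPM. The libraries also fell into a pair of classes, spread unevenly over the groups and read from 5 genes that include S100a4, Rpl24 and ribosomal pseudogenes. Control LPS replicate 3, succinate replicates 2 and 3 without LPS and control replicates 2 and 3 without LPS made up the higher class, and the other 7 libraries the lower. No LPS-treated succinate library was in the higher class, so class and LPS are partly confounded.

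With LPS, 5 of the 6 genes rose in both kinds of mice and Rac1 did not pass the test. In succinate mice Cybb rose 3.96-fold, Ncf1 2.93-fold, Ncf4 1.65-fold, Rac2 1.58-fold and Cyba 1.43-fold. In control mice the folds were 4.23 for Cybb, 2.48 for Ncf1, 1.72 for Ncf4, 1.57 for Cyba and 1.52 for Rac2. These counts of 5 stand against a background in which 14.1% of the 14324 tested genes rose with LPS in succinate mice and 15.3% in control mice, at an adjusted p below 0.05 in edgeR's quasi-likelihood test, and 16.2% fell in succinate mice and 14.8% in control mice. The median log2 fold change of the 6 genes was 0.69 in succinate mice and 0.72 in control mice, beside -0.0166 in succinate mice and -0.00363 in control mice over all tested genes. The 13 neutrophil markers, all of which passed the filter, also summed higher with LPS: 9052 to 9700 CPM with it and 4967 to 6238 CPM without in succinate mice, and 8747 to 11901 CPM with it and 5339 to 8280 CPM without in control mice. Ngp, Camp and Lcn2 held most of this sum, and the markers did not move as one. Mmp8, Mmp9, Padi4 and Cxcr2 had lower means with LPS in both kinds of mice, and Ltf and Csf3r were about level. Mmp8 averaged 44.6 CPM with LPS and 111 CPM without in succinate mice, and 54.3 CPM with LPS and 147 CPM without in control mice. The 7 macrophage markers, of which 2 passed the filter, summed to 742 to 876 CPM with LPS and 154 to 218 CPM without in succinate mice, and to 794 to 938 CPM with LPS and 221 to 256 CPM without in control mice, mostly Vcam1 and Adgre1, while Timd4 was at 0 in control mice without LPS. Vcam1 held most of the rise. It averaged 697 CPM with LPS and 91.9 CPM without in succinate mice, and 736 CPM with LPS and 121 CPM without in control mice. Adgre1 averaged 128 CPM with LPS and 92.1 CPM without in succinate mice, and 139 CPM with LPS and 112 CPM without in control mice. C1qb, C1qc and Mertk, which did not pass the filter, had lower means with LPS in both kinds of mice. The 7 dendritic cell markers, of which 6 passed the filter, summed to 38.1 to 56.4 CPM with LPS and 11.5 to 17.7 CPM without in succinate mice, and to 46.6 to 59.3 CPM with LPS and 9.86 to 12.2 CPM without in control mice. Ccr7 and Xcr1 held most of the sum with LPS. Ccr7 averaged 27.3 CPM with LPS and 3.58 CPM without in succinate mice, and 26.8 CPM with LPS and 2.03 CPM without in control mice. Flt3 and Cd209a had lower means with LPS in both kinds of mice. The part of these cells or genes in the oxidase values was not tested. In bulk RNA such as this, fewer cells of a type and less RNA per cell cannot be told apart. The plot of CPM by library shows all the values.

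**Figure D1:**
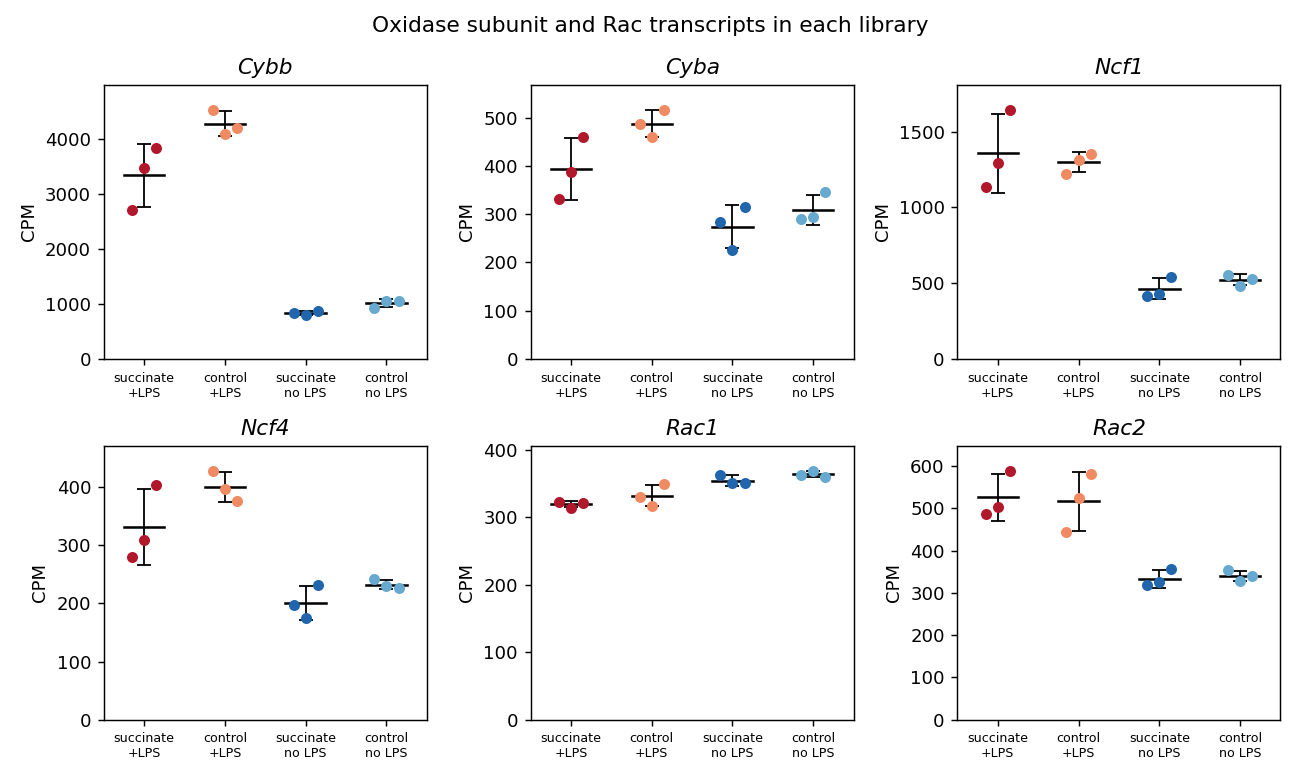
Read counts scaled by depth (CPM, TMM-scaled) of the 6 oxidase genes in each of the 12 libraries, by group; points are libraries, long bars group means and whiskers 1 SD. Cybb stands at 2706 to 4536 CPM in the 6 LPS-treated libraries and at 808 to 1054 CPM in the 6 without LPS, while Rac1 stays between 314 and 369 CPM throughout.

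Cybb, the catalytic chain, moved most. With LPS it had 2706, 3474 and 3844 CPM in the 3 libraries of succinate mice and 4536, 4105 and 4205 CPM in those of control mice. Without LPS it had 840, 808 and 883 CPM in succinate mice and 930, 1054 and 1054 CPM in control mice. Every LPS-treated library lay above every library without LPS, a separation that, within 1 kind of mice, 19.9% of tested genes met in succinate mice and 22.3% in control mice. The same shares apply to the separations of Cyba, Ncf1, Ncf4 and Rac2 given below. No share was counted for all LPS-treated libraries above all those without LPS. The log2 fold change was 1.99 ± 0.13 (SE; 95% interval 1.70 to 2.27) in succinate mice, with an adjusted p of 4.76e-08, and 2.08 ± 0.13 (1.80 to 2.36) in control mice, with an adjusted p of 2.73e-08. By p it ranked 94 of the 14324 tested genes in control mice. Its share of all counts of the 6 genes was 51.5, 55.3 and 52.9% in LPS-treated succinate libraries and 60.9, 57.7 and 56.9% in LPS-treated control libraries. Without LPS the share was 34.7, 34.9 and 33.0% in succinate mice and 34.1, 38.2 and 36.9% in control mice.

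Cyba, the partner chain that stabilises gp91phox, moved less. It had 331, 388 and 460 CPM in LPS-treated libraries of succinate mice and 487, 459 and 516 CPM in those of control mice. In the absence of LPS the values were 283, 226 and 314 CPM in succinate mice and 289, 294 and 345 CPM in control mice. In each kind of mice the LPS-treated libraries lay above those without LPS, though in succinate mice only by the step between 331 and 314 CPM. The log2 fold change was 0.52 ± 0.14 in succinate mice (adjusted p = 0.0122) and 0.66 ± 0.14 in control mice (adjusted p = 0.00256). The call in succinate mice was lost without LPS replicate 3 (0.39, adjusted p = 0.0668) and without replicate 2 of the libraries without LPS (0.40, adjusted p = 0.0573). Within single library classes, which hold fewer libraries, Cyba stood at 0.50 in succinate mice (lower class, adjusted p = 0.119) and 0.70 in control mice (higher class, adjusted p = 0.0732).

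The ratio of the transcripts of this heterodimer, per kilobase of exon, stood apart with and without LPS. Cybb over Cyba was 1.46, 1.60 and 1.49 in LPS-treated succinate libraries and 1.67, 1.60 and 1.46 in LPS-treated control libraries. It was 0.530, 0.640 and 0.503 in succinate libraries without LPS and 0.575, 0.641 and 0.547 in control libraries without LPS. So Cyba was the higher transcript per length in all 6 libraries without LPS, and Cybb in all 6 with it. By CPM alone Cybb was above Cyba in every library. The crossing therefore rests on the exon lengths used, 5808 bases for Cybb and 1039 for Cyba. The ratios of the oxidase partners by library are plotted beside these values.

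**Figure D2:**
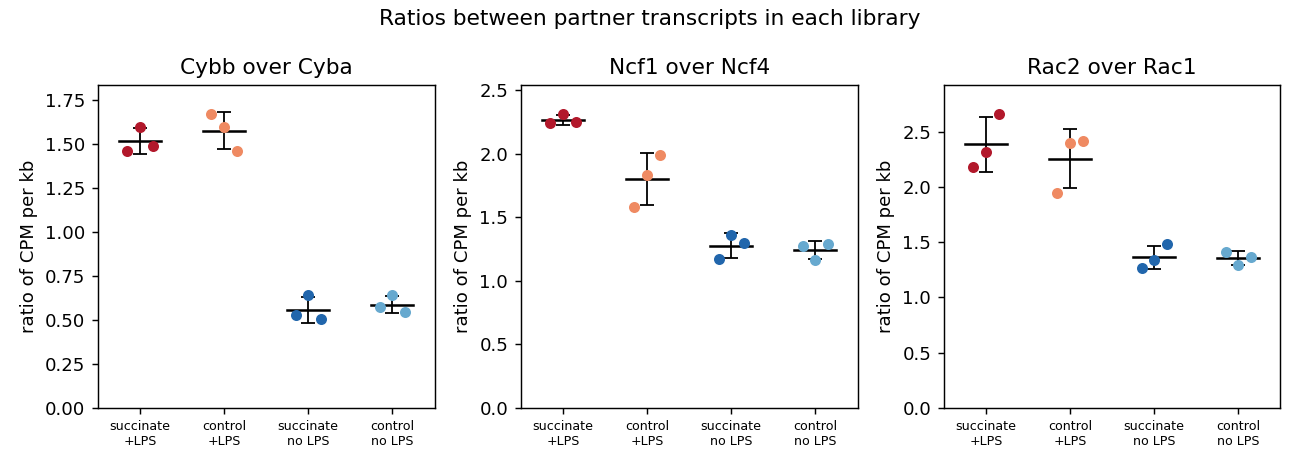
Ratio of CPM per kilobase of exon for Cybb over Cyba, Ncf1 over Ncf4 and Rac2 over Rac1 in each of the 12 libraries, by group; points are libraries, long bars group means and whiskers 1 SD. Cybb over Cyba lies between 1.46 and 1.67 with LPS and between 0.503 and 0.641 without it.

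Ncf1, the organiser p47phox, had 1133, 1292 and 1644 CPM in LPS-treated succinate libraries and 1224, 1315 and 1356 CPM in LPS-treated control libraries. Untreated cells had 417, 429 and 543 CPM in succinate mice and 556, 485 and 530 CPM in control mice. The LPS-treated and untreated libraries did not overlap. The log2 fold change was 1.55 ± 0.15 (95% interval 1.24 to 1.86) in succinate mice, with an adjusted p of 1.2e-06, and 1.31 ± 0.14 in control mice, with an adjusted p of 5.66e-06. Ncf1 shares 408 exonic bases with Gtf2ird2 on the other strand, and the handling of strand in the counting is not given, so a part of its counts is uncertain. Gtf2ird2 had 13310 counts over the 12 libraries, against 186781 for Ncf1.

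Ncf4, whose product p40phox binds phosphatidylinositol 3-phosphate on phagosomes, had 279, 309 and 404 CPM in LPS-treated succinate libraries and 428, 396 and 376 CPM in LPS-treated control libraries. Cells without LPS had 197, 174 and 231 CPM in succinate mice and 241, 230 and 226 CPM in control mice. All 6 LPS-treated libraries lay above the 6 without LPS. The log2 fold change was 0.72 ± 0.14 in succinate mice (adjusted p = 0.00104) and 0.78 ± 0.14 in control mice (adjusted p = 0.000489). Per kilobase, Ncf1 over Ncf4 was 2.24, 2.31 and 2.25 in LPS-treated succinate libraries and 1.58, 1.83 and 1.99 in LPS-treated control libraries. Without LPS it was 1.17, 1.36 and 1.30 in succinate mice and 1.27, 1.16 and 1.29 in control mice, below every LPS-treated library.

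Rac2 and Rac1, the alternative GTPases, parted. Rac2 had 486, 502 and 589 CPM in LPS-treated succinate libraries and 443, 525 and 582 CPM in LPS-treated control libraries. The libraries without LPS had 318, 325 and 357 CPM in succinate mice and 353, 329 and 340 CPM in control mice, with no overlap with the LPS-treated libraries. Its log2 fold change was 0.66 ± 0.12 in succinate mice (adjusted p = 0.00059) and 0.60 ± 0.12 in control mice (adjusted p = 0.00117). Within the lower library class alone, a fit that rests on fewer libraries, the value in control mice was 0.48 with an adjusted p of 0.114.

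Rac1 had 322, 314 and 321 CPM in LPS-treated succinate libraries and 330, 317 and 349 CPM in LPS-treated control libraries. Without LPS it had 363, 350 and 350 CPM in succinate mice and 362, 369 and 360 CPM in control mice. In each kind of mice the LPS-treated libraries lay below those without LPS, yet the differences were small and did not pass the test. The log2 fold change was -0.15 ± 0.09 (95% interval -0.34 to 0.04, adjusted p = 0.214) in succinate mice and -0.13 ± 0.09 (-0.32 to 0.06, adjusted p = 0.296) in control mice. Separation of the 3 LPS-treated libraries below the 3 without LPS was met by 21.5% of tested genes in succinate mice and 23.2% in control mice. Rac1 shares 2309 exonic bases with Daglb on the other strand, which held 8923 counts over the 12 libraries, against 69926 for Rac1. Of the runs of 50 bases in Rac1 transcripts, 50.3% also occurred in transcripts of Daglb on the opposite strand, and none occurred in another gene on the same strand. Its level is therefore uncertain as far as the counting ignored strand, and the counting tool is not known. No run of 50 bases was shared between the transcripts of Rac1 and Rac2.

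Per kilobase of exon, the scale on which genes can be set beside each other, the 6 genes ranked above 95.3 to 99.7% of tested genes in the 4 groups. These levels rest on the annotated exon length of each gene. Those of Rac1 and Ncf1 also rest on how reads in their overlaps with Daglb and Gtf2ird2 were counted. In LPS-treated succinate libraries the order of mean CPM per kilobase was Cybb (575), Cyba (378), Ncf1 (370), Rac2 (169), Ncf4 (163) and Rac1 (71.0). In LPS-treated control libraries it was Cybb (737), Cyba (469), Ncf1 (354), Ncf4 (198), Rac2 (167) and Rac1 (73.8). Succinate libraries without LPS had Cyba (264), Cybb (145), Ncf1 (126), Rac2 (107), Ncf4 (99.4) and Rac1 (78.8), and control libraries without LPS had Cyba (298), Cybb (174), Ncf1 (143), Ncf4 (115), Rac2 (110) and Rac1 (80.9). Ncf4 and Rac2 overlapped in range in all 4 groups, and Cyba and Ncf1 in LPS-treated succinate libraries. In succinate libraries without LPS, Ncf1 overlapped with Cybb (139 to 152) and, between 114 and 115, with Rac2. All other neighbours in these orders were separate. Summed over the 6 genes, the libraries held 5256, 6279 and 7262 CPM with LPS in succinate mice and 7447, 7117 and 7384 CPM with LPS in control mice. Without LPS the sums were 2419, 2312 and 2678 CPM in succinate mice and 2732, 2761 and 2855 CPM in control mice.

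Cybc1, the chaperone needed for gp91phox to mature, averaged 78.6 ± 2.21 CPM with LPS and 88.3 ± 0.851 CPM without in succinate mice, a log2 difference of -0.17 (adjusted p = 0.178). In control mice it averaged 71.9 ± 4.23 CPM with LPS and 86.1 ± 2.03 CPM without (SD, n = 3 each) and fell by 0.26 ± 0.09 on the log2 scale (adjusted p = 0.0404). Succinate against control mice, its log2 fold change was 0.13 with LPS (adjusted p = 0.643) and 0.04 without (adjusted p = 0.981). The difference between its LPS effects, succinate minus control, was 0.09 and was not called.

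Succinate treatment gave no called difference for any of the 6 genes, with or without LPS. In LPS-treated cells the share of tested genes called by edgeR was 0.0628%, or 9 genes, all lower in succinate mice, and in cells without LPS it was 0%. None of the 6 genes was called by DESeq2 or limma-voom in either comparison. At an unadjusted p below 0.05, edgeR and DESeq2 each had 2 of the 6 with LPS (Cybb and Cyba) and limma-voom 3 (Cybb, Cyba and Ncf4). Without LPS edgeR had 0, and DESeq2 and limma-voom had 1 each (Cybb). Over all genes, 1680 with LPS and 535 without LPS were at such a p in edgeR. In DESeq2 they were 1713 with LPS and 552 without, and in limma-voom 1672 with LPS and 538 without. After adjustment, DESeq2 called 337 of all genes with LPS and 1 without, and limma-voom 34 with LPS and 0 without. The plot of fold changes sets the 4 comparisons side by side.

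**Figure D3:**
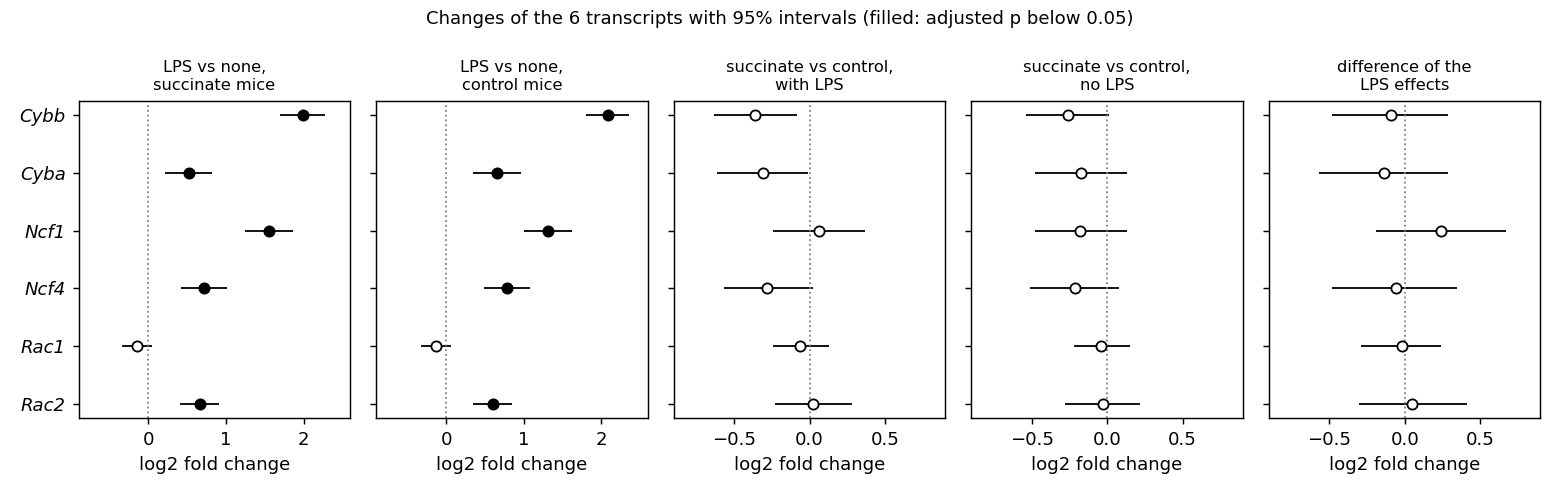
Log2 fold changes of the 6 oxidase genes in the 4 comparisons, and the difference between the LPS effects (succinate minus control mice), with 95% intervals from the fit over all 12 libraries; filled points passed an adjusted p of 0.05. With LPS the values of Cybb are 1.99 in succinate mice and 2.08 in control mice, and no point of a succinate comparison is filled.

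Cybb was nonetheless lower in every succinate library than in every control library of the same culture. With LPS the succinate libraries reached 2706 to 3844 CPM and the control libraries 4105 to 4536 CPM, a log2 fold change of -0.36 ± 0.13 (95% interval -0.63 to -0.08, adjusted p = 0.278). Without LPS they reached 808 to 883 CPM in succinate mice and 930 to 1054 CPM in control mice, a log2 fold change of -0.26 ± 0.13 (-0.54 to 0.01, adjusted p = 0.958). Such a separation with succinate lower was met by 10.2% of tested genes with LPS and 4.27% without. Without LPS-treated succinate replicate 1, the lowest library, the value with LPS was -0.23 (adjusted p = 0.801). Within the lower library class it was -0.37 (adjusted p = 0.307). The summed Ly6C-high monocyte markers moved the same way: 9100, 10342 and 10906 CPM in LPS-treated succinate libraries and 11386, 12470 and 12320 CPM in LPS-treated control libraries. Without LPS they summed to 12052, 9299 and 10741 CPM in succinate mice and 13686, 12728 and 13258 CPM in control mice. The B cell markers moved the other way, with 23.1 to 31.2 CPM in LPS-treated succinate libraries and 12.5 to 20.1 CPM in LPS-treated control libraries, and without LPS medians of 23.0 CPM in succinate mice and 16.3 CPM in control mice, again without overlap. The 8 T and NK cell markers, of which 2 passed the filter, summed to 32.1 to 44.0 CPM in LPS-treated succinate libraries and 18.5 to 31.7 CPM in LPS-treated control libraries. Nkg7 held most of these sums, at means of 36.6 CPM in succinate mice and 25.5 CPM in control mice with LPS. Without LPS the sums overlapped, at 18.9 to 25.5 CPM in succinate mice and 22.7 to 24.9 CPM in control mice. Ncr1 was at 0 in both groups without LPS. The part of these markers in the Cybb values was not tested.

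The other 5 genes overlapped between succinate and control mice. With LPS, Cyba had a log2 fold change of -0.31 (95% interval -0.61 to -0.01, adjusted p = 0.415) and Ncf4 one of -0.28 (-0.57 to 0.02, adjusted p = 0.469). Ncf1 stood at 0.06 (-0.24 to 0.37) and Rac2 at 0.02 (-0.23 to 0.28), both of which turned sign when single libraries were left out. Rac1 stood at -0.06 (-0.24 to 0.13) and turned to 0.07 when libraries were scaled by their totals alone, a scaling that moved the median of all genes to 0.107 from -0.014. Without LPS the 5 log2 fold changes lay between -0.21 for Ncf4 and -0.03 for Rac2, with adjusted p-values of 0.958 to 0.989. The narrowest interval among these 5 without LPS, that of Rac1, ran from -0.22 to 0.15, so that changes within these bounds were not excluded.

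The effect of LPS itself was not shown to differ between succinate and control mice. The difference between the LPS log2 fold changes, succinate minus control, was 0.24 for Ncf1 (95% interval -0.19 to 0.67), -0.14 for Cyba (-0.57 to 0.29) and -0.09 for Cybb (-0.48 to 0.29). It was -0.06 for Ncf4, -0.02 for Rac1 and 0.05 for Rac2. All 6 had an adjusted p of 1. Of all tested genes 0% were called by edgeR, 560 had an unadjusted p below 0.05, and DESeq2 called 3 and limma-voom 0.

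Within 3 of the 4 groups, most of the genes shared their highest library. In LPS-treated succinate cells replicate 3 was highest and replicate 1 lowest for 5 of the 6 genes, all but Rac1. In succinate cells without LPS replicate 3 was again highest for these 5. In LPS-treated control cells replicate 3 was highest for 4 genes, Cyba, Ncf1, Rac1 and Rac2. The coefficient of variation in LPS-treated succinate libraries was 16.5% for Cyba, 17.4% for Cybb, 19.2% for Ncf1, 19.8% for Ncf4 and 10.6% for Rac2, against 5.79% for Cyba, 5.25% for Cybb, 5.18% for Ncf1, 6.50% for Ncf4 and 13.6% for Rac2 in LPS-treated control libraries. For Rac1 it was 1.45% in LPS-treated succinate libraries and 4.91% in LPS-treated control libraries. Neither the order of the libraries nor the spread was compared with that of all tested genes. Neither is therefore shown to be particular to the 6 genes. The difference in spread was not tested.

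Among the proteins that act on the assembled enzyme, 21 of 22 listed genes were tested. With LPS 9 rose and 3 fell in succinate mice (30.2% of all tested genes were called in either direction), with a median log2 fold change of 0.16, and 9 rose and 4 fell in control mice (30.1% of all), with a median of 0.19. Prkcd, the kinase that phosphorylates p47phox, averaged 985 ± 164 CPM with LPS and 470 ± 23.7 CPM without in succinate mice, and 986 ± 63.4 CPM with LPS and 428 ± 18.7 CPM without in control mice (SD, n = 3 each). Its log2 fold change was 1.07 in succinate mice (adjusted p = 7.72e-06) and 1.21 in control mice (adjusted p = 2.19e-06). Hvcn1, the proton channel that offsets the charge carried by the oxidase, rose by 0.92 in succinate mice and 0.99 in control mice on the log2 scale. Pla2g4a, the cytosolic phospholipase that releases arachidonate, rose by 0.68 in succinate mice and 0.97 in control mice, and the lipid kinase Pik3cg by 0.74 in succinate mice and 0.69 in control mice.

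Rac regulators moved in both directions. All 24 were tested. In succinate mice 5 rose and 7 fell with LPS, with a median of -0.15, and in control mice 6 rose and 5 fell, with a median of -0.11. Over all tested genes 30.2% were called in succinate mice and 30.1% in control mice. Swap70, which binds Rac and phosphoinositides, averaged 187 CPM with LPS and 85.7 CPM without in succinate mice, and 217 CPM with LPS and 79.5 CPM without in control mice. Dock5, an exchange factor for Rac, rose by 1.16 in succinate mice and 1.22 in control mice on the log2 scale. Arhgap25, a GTPase-activating protein that turns Rac off, averaged 21.1 CPM with LPS and 52.0 CPM without in succinate mice, and 20.2 CPM with LPS and 57.6 CPM without in control mice. Prex1, the exchange factor driven by phosphoinositide and Gβγ, fell by 1.22 in succinate mice and by 0.77 in control mice.

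Of the enzymes that use or remove superoxide and peroxide, 16 of 17 were tested. In succinate mice 5 rose and 0 fell with LPS, with a median of 0.51, and in control mice 7 rose and 2 fell, with a median of 0.33. In both directions together, 30.2% of all tested genes were called in succinate mice and 30.1% in control mice, so 5 of 16 is near the background. Sod2, the manganese superoxide dismutase of mitochondria, averaged 1139 ± 56.8 CPM with LPS and 123 ± 31.3 CPM without in succinate mice, a 9.26-fold rise. In control mice it averaged 1300 ± 80.6 CPM with LPS and 122 ± 11.2 CPM without, a 10.6-fold rise (SD, n = 3 each). Prdx5, a peroxiredoxin, rose 3.19-fold in succinate mice and 3.20-fold in control mice, and Gsr, glutathione reductase, rose 1.75-fold in succinate mice and 1.86-fold in control mice. Txn1, thioredoxin, rose 2.02-fold in succinate mice (adjusted p = 0.00424) and 2.10-fold in control mice (adjusted p = 0.0029). Txnrd1, thioredoxin reductase, rose 1.75-fold in succinate mice (adjusted p = 0.0285) and 2.90-fold in control mice (adjusted p = 0.000368). Other oxidases of the family were close to absent: of 9 listed genes only Noxo1 passed the filter, with means of 0.754 to 1.75 CPM and no call, and Nox1 had 40 counts over the 12 libraries. Nox3, Nox4 and Duoxa2 had 0.

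Transcription factors known to act on oxidase genes were called in 10 of 14 tested cases in each kind of mice, 5 up and 5 down with LPS, with medians of 0.10 in succinate mice and 0.25 in control mice, beside 30.2% of all tested genes called in succinate mice and 30.1% in control mice. Nfkb1, an NF-κB subunit, averaged 949 CPM with LPS and 257 CPM without in succinate mice, and 1181 CPM with LPS and 255 CPM without in control mice. Irf1 rose 2.33-fold in succinate mice and 3.98-fold in control mice. Fos and Jun, which form AP-1, both fell: the log2 fold change was -2.24 for Fos and -1.64 for Jun in succinate mice, and -2.45 for Fos and -2.04 for Jun in control mice. Spi1 (PU.1) and Irf8, named here after their values were seen because they act on Cybb in myeloid cells, went opposite ways. Spi1 averaged 814 CPM with LPS and 643 CPM without in succinate mice (adjusted p = 0.0186), and 884 CPM with LPS and 695 CPM without in control mice (adjusted p = 0.0165). Irf8 averaged 30.9 CPM with LPS and 94.3 CPM without in succinate mice (adjusted p = 0.000741), and 41.7 CPM with LPS and 100 CPM without in control mice (adjusted p = 0.0042). The plot by list shows the fold changes.

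**Figure D4:**
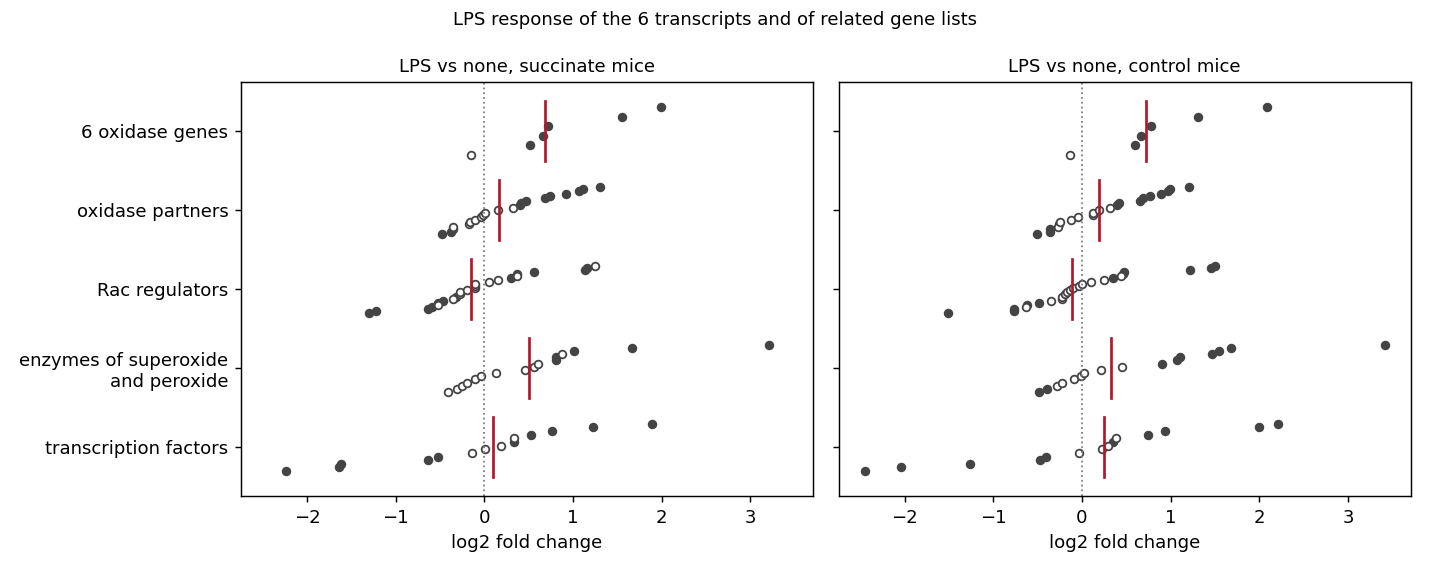
Log2 fold changes with LPS of the genes of each list, in succinate mice (left) and control mice (right); filled points passed an adjusted p of 0.05 and the red line is the median of the tested genes of a list. Sod2 stands farthest up, at 3.21 in succinate mice and 3.41 in control mice, and Fos farthest down, at -2.24 and -2.45.

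No tested gene of the lists was called for succinate by edgeR, with or without LPS. With LPS, leaving out the list of other oxidases, the smallest p in each list belonged to Irf1 at -0.66 ± 0.16 (adjusted p = 0.105), Vav1 at -0.39 ± 0.10 (adjusted p = 0.114), Pak1 at 0.46 (adjusted p = 0.227) and Prdx4 at -0.55 (adjusted p = 0.335). Irf1 averaged 107 ± 7.69 CPM in LPS-treated succinate libraries and 169 ± 50.3 CPM in LPS-treated control libraries (SD, n = 3 each). Vav1, the exchange factor for Rac that antigen and integrin receptors engage, averaged 344 CPM in LPS-treated succinate libraries and 451 CPM in LPS-treated control libraries. Without LPS the smallest p belonged to Arhgef6, another exchange factor, at -0.28 (adjusted p = 0.958). For the interaction it was that of Irf1, at -0.77 (adjusted p = 1).

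By Pearson correlation of log2 CPM over the 12 libraries, which share LPS treatment in 6 and none in the other 6, the genes most alike in pattern differed for each oxidase gene. Among 8085 genes searched, Car13, Parp14 and Malt1 (r = 0.997, 0.996 and 0.996) were closest to Cybb, and Ifngr2, Adprh and Acp2 (0.991, 0.987 and 0.977) to Cyba. Siglece, Fam98b and Il12a (0.993, 0.991 and 0.991) were closest to Ncf1, and Wdr1, Apobr and Vdac3 (0.991, 0.985 and 0.981) to Ncf4. Alas1, Sla and Fignl1 (0.989, 0.987 and 0.982) were closest to Rac2, and Tspan13, Rrp1 and Desi2 (0.964, 0.961 and 0.955) to Rac1. These values describe likeness over libraries that mostly differ by LPS, and no test goes with them.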

How the data were processed

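The authors deposited whole-number read counts per gene for each of 12 libraries, not normalised. Per the submitters' processing notes the reads went through Trim Galore and the mm10 build. No aligner, counting tool, annotation or handling of strand is given in the sources used here. Total counts were 15975882 to 18306747 per library. Groups came from the sample titles.

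Counts were tested with edgeR 4.0.16 (R 4.3.3). The filterByExpr step left 14324 genes and removed 14239. Libraries were scaled by TMM, and its quasi-likelihood test was run on all 12 together, with a mean for each of the 4 groups. A call needed p below 0.05 after Benjamini-Hochberg adjustment over the tested genes. Unless another tool is named, each p comes from this test. CPM are TMM-scaled, and CPM per kilobase use the exon union of the GENCODE annotation of GRCm38. DESeq2 1.42.0 and limma 3.58.1 (voom) were alternatives, beside other filters and scalings, single libraries left out, a replicate block and the library class, which was fitted as a term and also alone in each class. Same-numbered replicates of the 2 groups without LPS deviated together over all 3 pairs (correlations of 0.260, 0.116 and 0.198). All 3 were over 0.1, which no other pair of groups met. This hint of pairing comes from the data, not the labels. In both groups replicate 1 was in the lower library class and replicates 2 and 3 in the higher, so number and class partly coincide. The values given for that comparison come from the fit without a block. With the replicate block Cybb stood at -0.26 (adjusted p = 0.828). The code was checked on simulated data. Promoter motifs were chosen after the windows had been read.

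The 6 genes and the lists were chosen with earlier results of these data known. Named were the 6 genes and Cybc1 in each comparison, and up to 4 genes per list with the smallest p, called or not, of which the text gives a part; 1 further gene of the rule is not reported here. For likeness, the 3 genes of highest Pearson correlation among tested genes of at least 10 CPM were named, leaving out predicted genes, clones and pseudogenes.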

Additional observations from a re-analysis of the deposited data

How the results depend on the processing

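Of 666 values of the 6 genes under other settings, 644 kept direction and side of the threshold, 5 lost the call and 17 changed sign. The 5 LPS calls per kind of mice stood in every planned setting except for Cyba in succinate mice, which ranged from 0.39 to 0.63 with single libraries left out. Within a single library class, an alternative chosen after seeing the data that rests on fewer libraries, the lower class gave Cyba 0.50 (adjusted p = 0.119) in succinate mice and Rac2 0.48 in control mice, and the higher class gave Cyba 0.70 (adjusted p = 0.0732) in control mice. There, 2220 (lower) genes were called with LPS in succinate mice, against 4331 over both classes, and 2098 (lower) and 1827 (higher) in control mice, against 4306. For succinate with LPS, 9 genes were called, but 694 with no filter, 30 with a stricter filter, 0 with scaling by library size alone, 337 with DESeq2, 34 with limma-voom, 0 with only the groups compared, 190 with the class as a term, 1 in the lower class and 0 to 197 with single libraries left out. In that comparison the same-numbered libraries had correlations of -0.033, 0.018 and 0.093, under what was asked of a pairing, and the replicate block gave 77 genes. Over all pairs of groups, 7 of 18 such correlations were over 0.1 and a library correlated best with its own number in 23 of 36 cases, a hint of pairing from the data. Where all 3 pairs were over 0.1, for succinate without LPS, the block gave 0 genes, and it changed no call of the 6 genes in any comparison. For succinate without LPS and for the interaction, 0 genes were called, but 72 and 71 with no filter and 1 and 3 with DESeq2. None of the 6 genes was called for succinate in any of these settings. Signs changed as follows: without LPS, Rac2 at 0.00086 (library size alone), 0.03 (higher class) and -0.08 to 0.0017 (single libraries left out), and Rac1 at 0.0013 (lower class). With LPS they were Rac1 at 0.07 (library size alone), Ncf1 at -0.10 to 0.18 and Rac2 at -0.08 to 0.12 (single libraries left out). In the interaction they were Rac1 at 0.02 (no filter), 0.07 (library size alone) and -0.05 to 0.02, Ncf4 at 0.02 (library size alone) and -0.24 to 0.05, Cybb at -0.21 to 0.04 and Rac2 at -0.05 to 0.15, the ranges again from leaving out single libraries. The cause of these shifts was not tested.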
